A study of Mus musculus with 6 samples.

Results

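Small nucleolar RNA host genes are spliced noncoding genes whose introns carry small nucleolar RNAs. The 9 host genes described here, Gas5, Snhg1, Snhg3, Snhg4, Snhg5, Snhg6, Snhg8, Snhg11 and Snhg12, were taken by gene symbol from a table of 24980 symbols, and all 9 were listed. The values come from RNA-seq of satellite cells, the stem cells of skeletal muscle, sorted by flow cytometry from hindlimb muscles of adult C57BL6/J mice. There were 3 libraries labelled scERα WT and 3 labelled scERα KO, and per the labels the mice had received 10 mg of tamoxifen in total, WT included, to induce Cre. The KO label refers to estrogen receptor α in satellite cells; the Cre driver, the floxed allele and whether WT mice carried Cre are not stated in those sources. Whether the libraries of a group came from different mice is not in the labels, and the p-values below reflect only how these libraries vary, technical variation included.

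As background, the primary transcript of such a host is spliced, the introns are trimmed into small nucleolar RNAs, and the joined exons remain as a long noncoding RNA. Small nucleolar RNAs of the C/D box class guide ribose methylation of ribosomal RNA, and those of the H/ACA class guide pseudouridylation. Several hosts begin with a 5′ terminal oligopyrimidine (TOP) tract, the element that also opens the mRNAs of ribosomal proteins and couples their translation to growth signals. Ribosomes that engage the spliced hosts meet early stop codons, and several hosts are degraded by nonsense-mediated decay when translation is active. Gas5 owes its name, growth arrest-specific, to its accumulation in cells that stop growing.

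The start of each host is shown first because the TOP tract is the feature the hosts may share with ribosomal protein genes. Each line gives 30 bases before and 30 bases from the annotated first base, 5′ to 3′, from RefSeq promoters on GRCm38.p6. Capitals mark a C followed by at least 4 further C or T without interruption, where that C lies within 5 bases of the annotated first base, read on the transcript's strand. Promoters were matched for 7 of the 9 hosts. For Gas5, which has 2 annotated starts in the table, the downstream one is printed, since the other holds no such tract.
Gas5 (chr1:161035136-161035195, plus strand): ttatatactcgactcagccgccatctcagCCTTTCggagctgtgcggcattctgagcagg
Snhg12 (chr4:132308648-132308707, plus strand): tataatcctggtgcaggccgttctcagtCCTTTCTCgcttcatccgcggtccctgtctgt
Snhg8 (chr3:123508307-123508366, minus strand): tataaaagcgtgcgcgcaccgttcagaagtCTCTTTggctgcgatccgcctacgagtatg
Snhg3 (chr4:132353657-132353716, minus strand): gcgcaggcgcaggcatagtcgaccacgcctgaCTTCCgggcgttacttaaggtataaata
Snhg1 (chr19:8723457-8723516, plus strand): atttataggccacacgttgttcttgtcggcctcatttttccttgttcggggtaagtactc
Snhg5 (chr9:88522868-88522927, minus strand): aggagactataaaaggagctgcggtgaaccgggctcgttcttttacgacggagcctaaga
Snhg11 (chr2:158375683-158375742, plus strand): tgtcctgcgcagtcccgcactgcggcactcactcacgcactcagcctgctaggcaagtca
The tract was found in 4 of the 7 hosts, with a length of 6 bases in Gas5 and in Snhg8, 8 in Snhg12 and 5 in Snhg3. Counted by promoter window, that is 4 of 8, beside 18.3% of all 32851 windows and 33 of 78 (42.3%) for cytosolic ribosomal protein genes. Counted by gene, the tract was found in 21.2% of all genes and 47% of ribosomal protein genes. A match describes letters at an annotated start, and no match says only that no such C lies within 5 bases of it. The printed line of Snhg5 holds such a tract further downstream, which is unmarked.

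The hosts are short, compact genes. Gas5 spans chr1:161034422-161038539 on the plus strand (GENCODE vM21, GRCm38) and contains 9 genes annotated as small nucleolar RNAs, 1 of them under the microRNA symbol Mir5117, Snhg1 spans chr19:8723475-8726443 on the plus strand and contains 8, and Snhg12 spans chr4:132308623-132311024 on the plus strand and contains 4. Snhg3 (chr4:132348014-132353686, minus strand), Snhg5 (chr9:88521050-88522929, minus strand) and Snhg11 (chr2:158375638-158386145, plus strand) contain 2 each. Snhg6 (chr1:9941959-9944118, minus strand) and Snhg8 (chr3:123507552-123508404, minus strand) contain 1 each. Snhg4 was matched only in RefSeq, where Snora74a lies inside it. Snhg3 overlaps the protein-coding gene Rcc1 on the same strand, so reads of those genes may be shared between them. GENCODE vM21 labels Snhg11 protein-coding and RefSeq labels it a long noncoding RNA.

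Values were TPM, transcript abundances scaled by length and by library total. The listed symbols summed to between 295306 TPM in KO library 3 and 334382 TPM in WT library 2, and 62.7% to 66.9% of that sum lay in ribosomal and small structured RNA genes. TPM keeps no depth, so the counting precision of a single value is unknown. Differences were tested on log2(TPM + 1) with limma over the 8971 genes that reached a TPM of 1 in 3 or more libraries, with Benjamini-Hochberg adjustment over all of them. The targeted gene Esr1 lay at 7.53, 6.96 and 6.94 TPM in WT and at 2.92, 3.69 and 3.87 TPM in KO, with a limma adjusted p of 0.0925. The satellite cell marker Pax7 lay between 17.9 and 32.8 TPM in the 6 libraries, the leukocyte marker Ptprc between 0.03 and 0.29 TPM, and the fibro-adipogenic marker Pdgfra between 0.10 and 0.31 TPM. Summed over their lists, fibro-adipogenic and fibroblast markers, 9 of 9 listed, lay at 135 to 241 TPM in WT and 167 to 197 TPM in KO, while 5 of 7 tested had a higher value in KO, with a median log2 difference of 0.49 and an unadjusted limma p under 0.05 in 2. The 7 Schwann cell markers summed to 30.6 to 31.4 TPM in WT and 33.2 to 45.9 TPM in KO, the 8 endothelial markers to 11.8 to 17.7 and 11.3 to 22.8 TPM, the 7 pericyte and smooth muscle markers to 38.1 to 38.8 and 38.1 to 58.1 TPM, the 9 mature fibre markers to 12.5 to 28.9 and 8.5 to 44.4 TPM, and the 5 erythroid markers to 18.2 to 215 and 38.4 to 437 TPM. All 7 tested fibre markers had a higher value in KO, with a median log2 difference of 0.46 and an unadjusted limma p under 0.05 in 0. All 5 erythroid markers also did, with a median of 1.67 and that p in 0. Of 5 tested Schwann cell markers 4 were higher, with a median of 0.21 and that p in 2. For pericyte and smooth muscle markers it was 4 of 5, 0.26 and 1, and for endothelial markers 4 of 4, 0.26 and 0. Of 11 satellite cell markers 8 were higher, with a median of 0.12 and that p in 1. Over all genes tested 77.6% had a higher value. No marker of these lists was at 0 in all libraries, and their part in the values below was not tested. Fewer cells of a type and less RNA per cell cannot be told apart in such samples.

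All 9 hosts passed the filter, and their levels differed over a wide range. Gas5 was the most abundant, with a mean of 122 TPM over the 6 libraries, followed by Snhg1 at 59.6 TPM. Their ranges did not meet, and neither did those of Snhg1 and Snhg12, the next in order at 17.7 TPM. The lowest Snhg12 value was below the highest Snhg8 value. Snhg8 at 11.6, Snhg6 at 10.2 and Snhg5 at 9.29 TPM had overlapping values and could not be ordered. Snhg4 at 2.95 and Snhg3 at 2.91 TPM also overlapped. Snhg11 was lowest, at 1.35 TPM, near the minimum of the filter and overlapping Snhg3. Gas5 alone supplied 53.6% to 56.5% of the summed TPM of the 9 hosts in WT and 44.2% to 49.4% in KO.

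**Figure D1:**
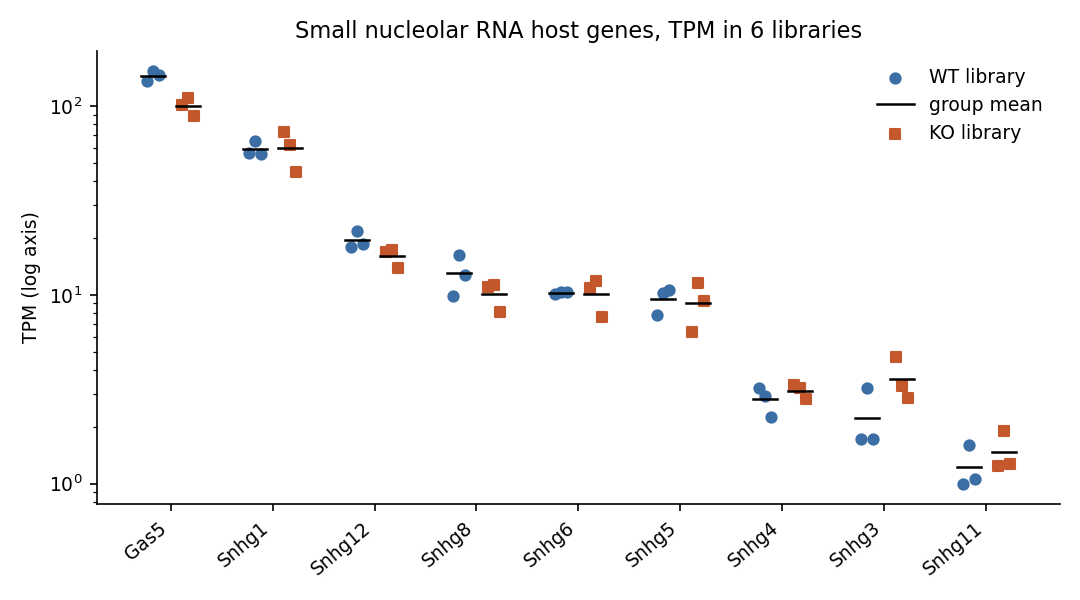
TPM of the 9 host genes on a log axis, with 3 WT libraries as circles, 3 KO libraries as squares and black lines for group means. Gas5 is the host with the highest values, and its 3 KO values, 88.4 to 110 TPM, lie below its 3 WT values, 136 to 153 TPM.

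No host passed the adjusted threshold of 0.05 in either direction by limma. At an unadjusted p under 0.05 there was 1 host with a higher value in KO, Snhg3, and 1 with a lower value, Gas5. Over all genes tested 3 were called higher (0.0334%) and 2 lower (0.0223%), and an unadjusted p under 0.05 was found for 7.89% higher and 2.66% lower. Without KO library 3 limma called 0 genes in either direction, with an unadjusted p under 0.05 in 474 higher and 203 lower. The 3 KO libraries lay below the 3 WT libraries in 2 of the 9 hosts, Gas5 and Snhg12, against 3.07% of all genes tested, and above them in 0 hosts, against 13.5%. The log2 difference was below 0 in 6 of 9 hosts, against 22.4% of all genes tested. The sixth, Snhg1, was at -0.001, and its mean TPM was slightly higher in KO. With a pseudocount of 5 the count was 5 of 9. Under median-of-ratios and quantile scaling it was 6 and 7 of 9, where the median of all genes was 0.003 and -0.001. The share of all genes below 0 was not counted there. The median log2 difference of the hosts was -0.04, beside 0.12 for all genes tested. When ribosomal and small structured RNA genes were removed and the rest rescaled, it was 0.01, beside 0.17 for all genes. Single hosts ranged from -0.54 to 0.53.

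Gas5 had the lowest log2 difference among the hosts. It lay at 136, 153 and 146 TPM in WT and at 101, 110 and 88.4 TPM in KO. Every KO library was below every WT library. The mean was 145 ± 8.54 TPM in WT and 99.7 ± 10.8 TPM in KO (SD, n = 3 each), and the KO mean was 68.8% of that in WT. On the log2 scale KO minus WT was -0.54 (SE 0.14, 95% interval -0.86 to -0.22), with an unadjusted limma p of 0.00459 and an adjusted p of 0.221. The difference kept its sign in each other setting tried, between -0.70 and -0.46, and the adjusted p lay between 0.0572 and 0.573.

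Snhg12, the host of Snora16a, Snora44, Snora61 and Snord99, was the other host whose groups did not meet. It lay at 17.99, 21.85 and 18.48 TPM in WT and at 16.83, 17.22 and 13.95 TPM in KO. The highest KO library was only slightly below the lowest WT library. The log2 difference was -0.27 (SE 0.15, 95% interval -0.60 to 0.07), with a limma adjusted p of 0.556.

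Snhg8, which carries the H/ACA small nucleolar RNA Snora24, had a similar difference with a wider spread. It lay at 9.91, 16.3 and 12.8 TPM in WT and at 11.0, 11.2 and 8.12 TPM in KO. The lowest WT library was below 2 of the 3 KO libraries. The log2 difference was -0.32 (95% interval -0.78 to 0.13, limma adjusted p = 0.600).

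Snhg1, the second most abundant host and the carrier of Snord22, showed no difference beyond its spread. It lay at 56.2, 65.5 and 55.6 TPM in WT and at 72.9, 62.5 and 44.8 TPM in KO. The KO libraries held both the highest and the lowest value of all 6. The log2 difference was -0.001 (95% interval -0.44 to 0.44, limma adjusted p = 0.998). The point estimate of Gas5 lies outside this interval, but the interval of Gas5, -0.86 to -0.22, overlaps it. The difference between these hosts was not tested. Leaving out 1 library moved the Snhg1 estimate between -0.15 and 0.19.

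Snhg5, which carries Snord50a and Snord50b, and Snhg6, which carries Snord87, had overlapping groups. Snhg5 lay at 7.78, 10.2 and 10.6 TPM in WT and at 6.39, 11.5 and 9.30 TPM in KO, a log2 difference of -0.09 (95% interval -0.57 to 0.40). Snhg6 lay at 10.1, 10.4 and 10.3 TPM in WT and at 10.9, 11.8 and 7.64 TPM in KO, a log2 difference of -0.04 (95% interval -0.42 to 0.34). The WT values of Snhg6 were close together, and the KO values lay on both sides of them.

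The 3 hosts with a log2 difference above 0 were the 3 least abundant. Snhg3, host of Snora73a and Snora73b, lay at 1.73, 3.20 and 1.72 TPM in WT and at 4.69, 3.27 and 2.83 TPM in KO. WT library 2 was above KO library 3, so the groups overlapped. The log2 difference was 0.53 (SE 0.21, 95% interval 0.03 to 1.02), with an unadjusted limma p of 0.0390 and an adjusted p of 0.430. Rcc1, the regulator of chromosome condensation gene that shares its strand and locus, lay at 2.31, 1.62 and 1.43 TPM in WT and at 2.46, 2.02 and 2.41 TPM in KO, a log2 difference of 0.25. How reads were divided between Snhg3 and Rcc1 was not tested.

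Snhg4 lay at 3.22, 2.92 and 2.25 TPM in WT and at 3.32, 3.19 and 2.79 TPM in KO, and its log2 difference was 0.12 (95% interval -0.20 to 0.43). Snhg11 lay at 1, 1.61 and 1.06 TPM in WT and at 1.24, 1.90 and 1.27 TPM in KO, a log2 difference of 0.15 (95% interval -0.22 to 0.52). Both had overlapping groups, and both differences were close to the median of all genes tested.

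Many of the hosts were highest or lowest in the same library, but they did not all move together. Over the 6 libraries, Pearson r between hosts ran from -0.53 (Gas5 and Snhg3) to 0.94 (Snhg8 and Snhg12), on log2(TPM + 1). WT library 2, which had the highest sum of listed TPM, was the highest WT library in 7 of the 9 hosts. KO library 3, which had the lowest sum, was the lowest KO library in 7 of 9. The part of the library total in these values was not tested, but without KO library 3 the median log2 difference of the hosts was 0.13, beside 0.13 for all genes tested, and 5 hosts had a higher value. The estimate for Gas5 without that library was -0.46. The sum of ribosomal protein genes was likewise highest in WT library 2, at 31355 TPM, and lowest in KO library 3, at 17420 TPM. The share of all genes tested with WT library 2 highest in WT, or KO library 3 lowest in KO, was not counted.

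**Figure D2:**
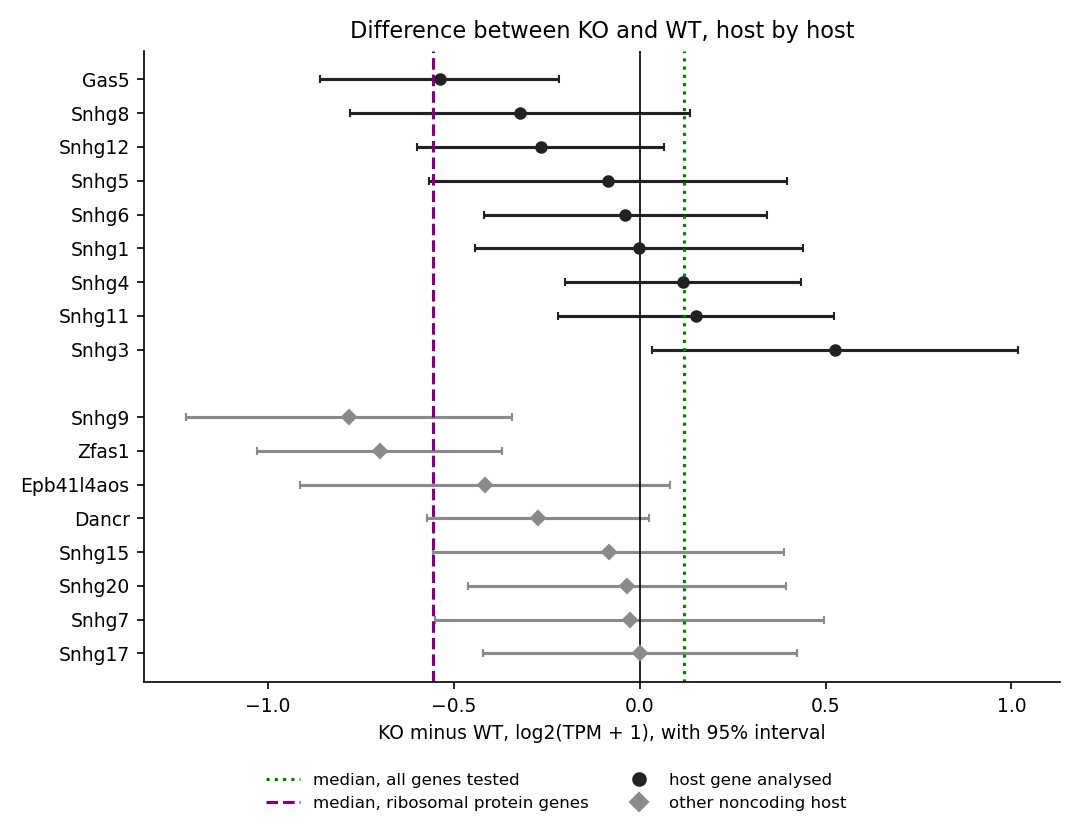
KO minus WT on the log2(TPM + 1) scale with 95% intervals from limma, for the 9 hosts (circles) and 8 other noncoding hosts (diamonds), with lines at the median of all genes tested (dotted) and of ribosomal protein genes (dashed). Gas5, at -0.54, lies near the ribosomal protein median of -0.55, while Snhg1, Snhg5 and Snhg6 lie near 0; under quantile normalization Gas5 is at -0.49 and the ribosomal protein median at -0.27.

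For comparison, 12 other noncoding hosts were listed, of which 11 were in the table and 8 were tested. Of those 8, 7 had a log2 difference below 0 and 1, Snhg17, was at 0.001 with a slightly lower mean TPM in KO; the median was -0.18, and the KO libraries lay below the WT libraries in 3. Limma called 0 of them, with an unadjusted p under 0.05 in 2. The median was -0.33 under median-of-ratios or quantile scaling, -0.42 with TPM of 5 or more in 3 libraries and -0.08 with no filter. The filter settings change the set of hosts. TPM of 5 or more left out Snhg7, Snhg17 and Snhg20, and no filter added Snhg10, Snhg14 and Snhg18. Zfas1, the host of Snord12 family members, lay at 10.5, 12.5 and 10.5 TPM in WT and at 6.10, 7.53 and 5.84 TPM in KO (log2 difference -0.70, limma adjusted p = 0.153). Snhg9 lay at 10.6, 14.4 and 9.03 TPM in WT and at 6.32, 7.10 and 4.98 TPM in KO (log2 difference -0.78, limma adjusted p = 0.205). Dancr, a long noncoding RNA gene, lay at 46.9 ± 2.16 TPM in WT and 38.7 ± 2.94 TPM in KO (SD, n = 3 each; log2 difference -0.27). Epb41l4aos had a log2 difference of -0.42 with overlapping groups. In these hosts too, values near 0 and values near those of ribosomal protein genes stood side by side.

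Ribosomal protein genes are the classical TOP genes and had lower values in KO in these libraries, which was known before the hosts were chosen. Of 84 tested members 81 had a lower value, the KO libraries lay below the WT libraries in 78, and the median log2 difference was -0.55. Limma called 0 of them over all genes tested, with an unadjusted p under 0.05 in 76. Rpl36a, Rpl37a and Rplp1 had log2 differences of -0.78, -0.68 and -0.68.

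Of 17 other tested TOP mRNAs 15 had a lower and 2 a higher value, with a median of -0.39, and limma called 0, with an unadjusted p under 0.05 in 9 lower and 1 higher. Rack1, a ribosome-bound scaffold protein gene that itself hosts small nucleolar RNAs, lay at 192, 226 and 202 TPM in WT and at 153, 125 and 129 TPM in KO. Eef1a1, Eef1b2 and Eef2, which encode translation elongation factors, had log2 differences of -0.46, -0.50 and -0.55.

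Measured within a library against the sum of ribosomal protein genes, the most abundant pair of hosts gave different patterns; these ratios were chosen after the values were seen and are not tested. Gas5 held 5.40, 4.87 and 5.31 TPM per 1000 TPM of ribosomal protein genes in WT and 4.88, 5.82 and 5.08 in KO, with overlapping groups. Snhg1 held 2.24, 2.09 and 2.02 in WT and 3.52, 3.31 and 2.57 in KO, with every KO library above every WT library. The ribosomal protein sum itself lay at 25137 to 31355 TPM in WT and at 17420 to 20673 TPM in KO. A gene with an unchanged TPM is therefore higher in KO on this ratio. The share of all genes that separate the groups on it was not computed. Divided by Snhg1, Gas5 came to 2.41, 2.33 and 2.63 in the WT libraries and to 1.38, 1.76 and 1.98 in the KO libraries, which did not overlap. Gas5 TPM alone also did not overlap between the groups, so this ratio is not a separate result. The share of gene pairs whose ratio separates the groups was not computed.

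**Figure D3:**
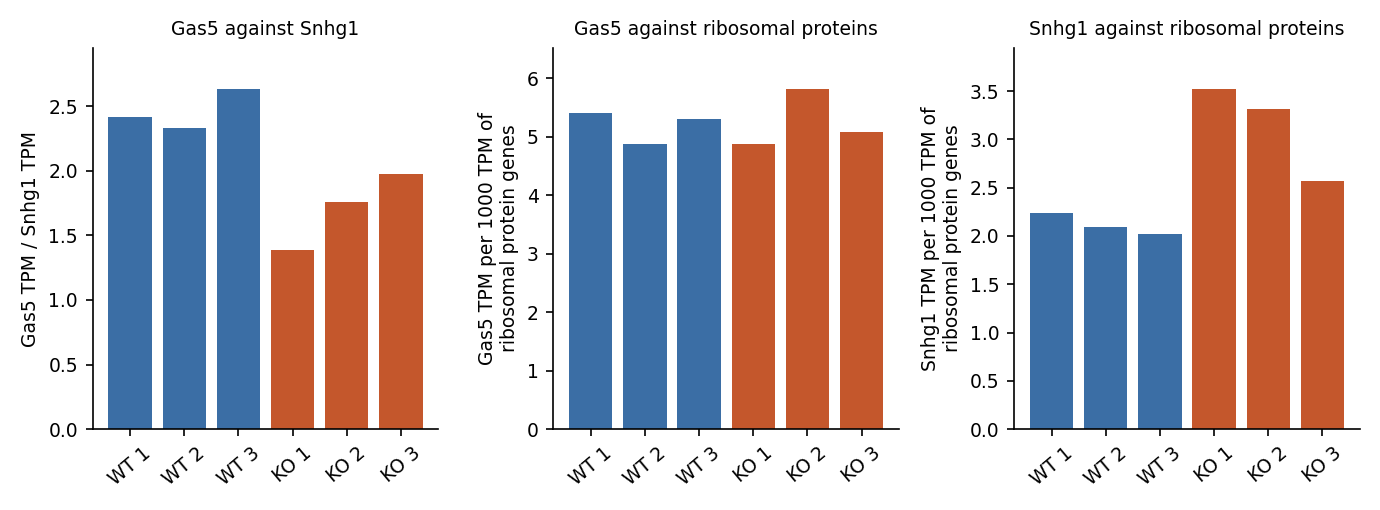
Ratios within each of the 6 libraries (WT blue, KO orange): Gas5 TPM over Snhg1 TPM on the left, and Gas5 and Snhg1 TPM per 1000 TPM of ribosomal protein genes in the middle and on the right. The Gas5 to Snhg1 ratio is 2.33 to 2.63 in WT and 1.38 to 1.98 in KO, while Gas5 relative to ribosomal protein genes overlaps between the groups.

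The small nucleolar RNAs inside the hosts were compared next, because host and intron come from one primary transcript. Of the 30 annotated inside the 9 hosts, 9 had a symbol in the table, from 6 hosts (only Snord47 for Gas5 and Snord22 for Snhg1). The sequences of 4 of them are given as examples of both classes, 1 for each of the hosts Gas5, Snhg6, Snhg8 and Snhg12. They are GENCODE vM21 transcripts on GRCm38, 5′ to 3′ on the transcript's strand. Capitals mark box C (TGATGA, searched in the first 22 bases) and box D (CTGA, searched in the last 16 bases) in C/D box RNAs, and the ACA trinucleotide near the 3′ end in the H/ACA box RNA.
Snord47 in Gas5 (chr1:161038082-161038158, plus strand): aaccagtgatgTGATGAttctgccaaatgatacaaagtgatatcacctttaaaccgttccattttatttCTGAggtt
Snord87 in Snhg6 (chr1:9942463-9942549, minus strand): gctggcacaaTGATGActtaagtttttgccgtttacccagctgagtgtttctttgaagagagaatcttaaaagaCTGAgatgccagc
Snord99 in Snhg12 (chr4:132310691-132310764, plus strand): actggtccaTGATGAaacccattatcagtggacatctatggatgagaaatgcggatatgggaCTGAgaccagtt
Snora24 in Snhg8 (chr3:123507937-123508066, minus strand): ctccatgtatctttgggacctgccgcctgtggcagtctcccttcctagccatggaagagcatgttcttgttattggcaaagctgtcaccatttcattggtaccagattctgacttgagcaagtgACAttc
The same search found no TGATGA in Snord22 of Snhg1 and no ACA near the 3′ end of Snora44 of Snhg12, which are not printed. Both C/D boxes were found in 69.4% of the 98 transcripts named Snord in the same annotation. The printed RNAs are 74 to 130 bases long, so their TPM depend on how the quantification treats transcripts near fragment length, and levels of a host and its small RNA are not compared here.

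Of the 9 small nucleolar RNAs, 8 had a lower and 1 a higher value in KO, with a median log2 difference of -0.14 that was -0.30 with median-of-ratios scaling, 0.01 with quantile normalization and -0.02 without KO library 3. Limma called 0 of them, with an unadjusted p under 0.05 in 1, Snora24. Snora24 lay at 974, 825 and 859 TPM in WT and at 731, 641 and 761 TPM in KO, with every KO library below every WT library (log2 difference -0.32, 95% interval -0.63 to -0.004, limma adjusted p = 0.465). Its host Snhg8 was also at -0.32, but under quantile normalization Snora24 was at -0.04 and Snhg8 at -0.50.

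Snord47, a C/D box RNA in an intron of Gas5, did not separate the groups as its host did. It lay at 211, 234 and 221 TPM in WT and at 241, 197 and 170 TPM in KO. KO library 1 was the highest and KO libraries 2 and 3 the lowest of all 6. The log2 difference was -0.14 (95% interval -0.51 to 0.22), against -0.54 for Gas5.

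Snord22, the C/D box RNA in Snhg1 and the most abundant of these small RNAs, had a log2 difference of -0.03 beside -0.001 for its host. Snord87 and its host Snhg6 were at -0.07 and -0.04, and Snora74a and its host Snhg4 at 0.02 and 0.12. In Snhg12, whose own difference was -0.27, the 3 H/ACA RNAs Snora16a, Snora44 and Snora61 were at -0.14, -0.14 and -0.17 and the C/D RNA Snord99 at -0.51. Snord99 varied widely, at 691, 1286 and 1308 TPM in WT and 776, 521 and 988 TPM in KO, and its 95% interval ran from -1.21 to 0.18.

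**Figure D4:**
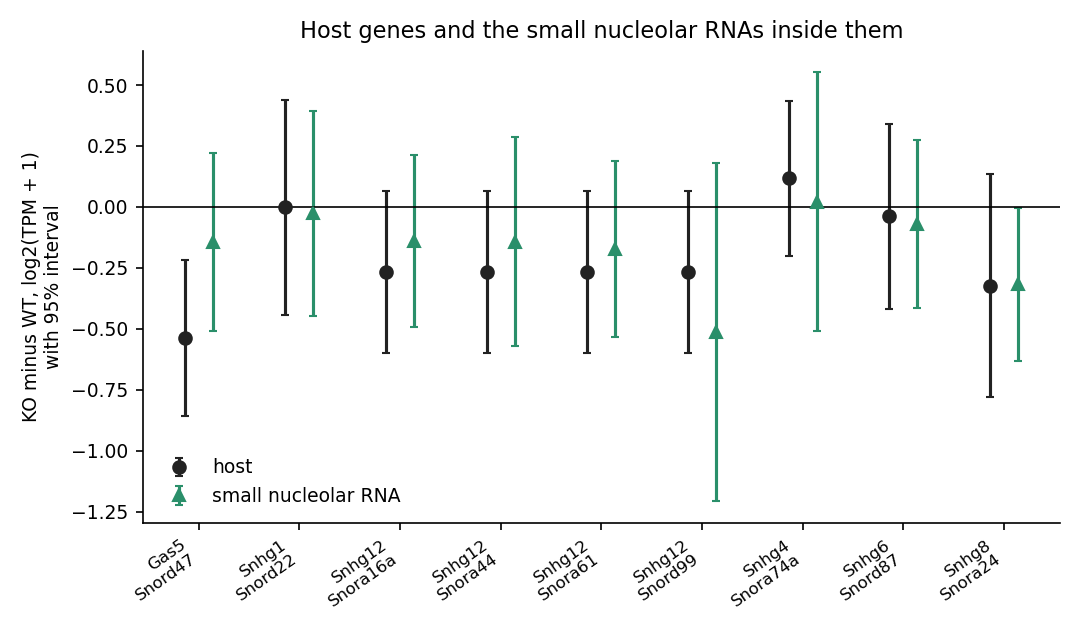
KO minus WT on the log2(TPM + 1) scale with 95% intervals from limma, for each host (circle) beside a small nucleolar RNA annotated inside it (triangle); Snhg12 is drawn for each of its 4 RNAs. Gas5 at -0.54 and Snord47 at -0.14 lie farthest apart, and the intervals of host and small RNA overlap in each pair.

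Genes that act on the hosts or their products had differences close to the median of all genes tested. Of 25 tested factors of nonsense-mediated decay 22 had a higher value in KO, beside 77.6% of all genes tested, with a median of 0.13 (0.02 with median-of-ratios and 0.01 with quantile scaling), and limma called 0, with 0 at an unadjusted p under 0.05. Upf3a, which encodes a factor of the exon junction complex pathway, lay at 5.74, 5.69 and 4.70 TPM in WT and at 6.82, 6.97 and 6.38 TPM in KO, with groups that did not meet. Rbm8a, a core component of that complex, lay at 7.51 ± 0.329 and 8.94 ± 0.424 TPM, and Smg9, a subunit of the complex of the kinase SMG1, at 1.09 ± 0.0666 and 1.42 ± 0.0950 TPM (WT and KO, SD, n = 3 each). Nbas had overlapping groups. The KO libraries lay above the WT libraries in 4 of these 25 genes, against 13.5% of all genes tested.

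Genes of proteins that bind or assemble small nucleolar RNAs also had a median close to that of all genes tested. Of 19 tested, 14 had a higher and 5 a lower value, with a median of 0.10 that median-of-ratios and quantile scaling each turned to -0.05, and limma called 0, with 0 at an unadjusted p under 0.05. Ruvbl2, an ATPase of the assembly complex, lay at 2.76 ± 0.303 TPM in WT and 2.08 ± 0.400 TPM in KO, Npm1, a nucleolar chaperone, at 185 ± 29.3 and 150 ± 28.0 TPM, and Naf1, an assembly factor of H/ACA particles, at 4.60 ± 1.28 and 5.31 ± 0.858 TPM (SD, n = 3 each). Pih1d1 lay at 1.60 ± 0.671 and 2.18 ± 0.236 TPM. Of 22 tested protein-coding hosts of small nucleolar RNAs 13 had a higher and 9 a lower value, with a median of 0.07 (-0.09 with median-of-ratios and -0.01 with quantile scaling), and limma called 0, with an unadjusted p under 0.05 in 4, all lower: Rack1, Eef1b2, Eef2 and Tpt1, each of which is also among the TOP mRNAs. Tpt1, which encodes a growth-related calcium-binding protein, lay at 1409 ± 156 TPM in WT and 1009 ± 131 TPM in KO (SD, n = 3 each).

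Genes of TOP recognition and mTOR signalling had a higher value in KO in 13 of 15 tested, beside the same 77.6%, with a median of 0.10, which median-of-ratios scaling turned to -0.03. Limma called 0, with 0 at an unadjusted p under 0.05. Myc, a transcription factor that drives ribosome synthesis, lay at 94.9, 124 and 71.2 TPM in WT and at 142, 111 and 93.6 TPM in KO. Ssb, which encodes the La protein, lay at 31.1 ± 4.39 and 35.5 ± 3.11 TPM (SD, n = 3 each), and Tia1 and Eif4ebp2 had log2 differences of 0.20 and 0.14.

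Among the genes whose log2(TPM + 1) over the 6 libraries was most like the mean profile of the 9 hosts were Fth1, the ferritin heavy chain gene, with a Pearson r of 0.985, Trim39 with 0.984, Rnf19b with 0.974 and Fbxo11 with 0.974. These values are among the highest of all genes tested over 6 libraries, where all genes of a library share its total, and they are a description. The mean profile itself was highest in WT library 2 and lowest in KO library 3, and the hosts did not all follow it.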

How the data were processed

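RNA-seq of 6 sorted satellite cell libraries was analysed. The authors deposited TPM per gene symbol; GRCm38 and mm10 are the builds, and kallisto, Trimmomatic 0.33, FastQC and CASAVA the tools, that the submitters' processing notes list, without saying what each did. Strandedness, the annotation and how transcripts were summed per gene are not given in the sources used here, so isoforms of a host, and unspliced host and small nucleolar RNA, cannot be separated.

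TPM are not counts, and no count model was applied. Groups came from the genotype label, and no number in the labels pairs samples. Genes that reached a TPM of 1 in 3 or more of the 6 libraries were tested on log2(TPM + 1), a scale that understates the change of low genes, with limma 3.58.1 in R 4.3.3 (eBayes with a trend, two-sided, threshold 0.05 after Benjamini-Hochberg adjustment). The TPM of Esr1 were also compared by exact permutation (two-sided p = 0.1, the lowest that 3 against 3 libraries allow). The procedure was also run on simulated data with independent normal errors for each gene. No shift of a whole library was simulated, so that run does not cover such shifts.

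The hosts, the comparison lists and the tests were chosen with earlier results of these data known. All hosts, the small nucleolar RNAs inside them, up to 4 members per list with the smallest p and the 5 genes most like the hosts' mean were to be named (2 genes so chosen are not reported here); Pax7, Ptprc, Pdgfra, Rcc1 and the ratios within libraries were added. The settings tried were pseudocounts of 0.1 and 5, other filters, median-of-ratios and quantile scaling, rescaling after removal of ribosomal and small structured RNA genes, robust or trend-free eBayes, library weights, and leaving out each library. Figures were drawn with matplotlib 3.10.9.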

Additional observations from a re-analysis of the deposited data

How the results depend on the processing

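No host passed the adjusted threshold under any of the 17 settings tried (0 of 150 results for single hosts), and the adjusted p of Gas5 ranged from 0.0572 with small structured RNA removed to 0.573 without KO library 3. The median log2 difference of the hosts, -0.04, was -0.18 under median-of-ratios scaling, -0.20 under quantile normalization and 0.01 with small structured RNA removed and the rest rescaled, where 4 of 9 hosts had a lower value. Leaving out 1 library moved it between -0.15 and 0.13, the latter without KO library 3. Relative to the median of all genes it ranged from -0.32, with TPM of 5 or more in 3 libraries, to 0.003, without KO library 3. The former setting kept 6 hosts, all with a lower value and with unchanged estimates. It left out Snhg3, Snhg4 and Snhg11, the hosts with a log2 difference above 0. The scalings moved the median of all genes from 0.12 to 0.003 (median of ratios) and -0.001 (quantile), and the split at an unadjusted p under 0.05 from 708 higher and 239 lower to 329 and 443, and to 368 and 435. The ribosomal protein median ranged from -0.71 under median-of-ratios scaling to -0.27 under quantile normalization.

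Counts over all genes, 3 higher and 2 lower, changed with most settings. Higher calls were 0 with a pseudocount of 0.1, with no filter and with a mean TPM of 1 or more, 1 with TPM of 5 or more and under either scaling, 38 with small structured RNA removed, 17 with robust eBayes and 53 with library weights. Lower calls were 0 with a pseudocount of 5, with no filter, with a mean TPM of 1 or more and under quantile normalization, 1 under median-of-ratios scaling, 51 with small structured RNA removed, 16 with robust eBayes and 27 with library weights. Leaving out 1 library gave 0 to 4 higher and 0 to 2 lower calls, with 0 of either without KO library 3, 0 lower without KO library 1 or 2, 1 higher without WT library 1 and 1 lower without WT library 3. The cause was not tested. Esr1 passed at adjusted p = 0.0396 (log2 difference -0.82) with small structured RNA removed, 0.0240 (-0.86) with robust eBayes and 0.0222 (-0.86) with library weights; without 1 library its difference was -0.92 to -0.77. No paired analysis was possible because the labels give no replicate number shared between groups. Depth is unknown, so no limit for low hosts such as Snhg11 can be given.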
